A study of Trametes pubescens and Hermanssonia centrifuga with 16 samples.

Results

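In Trametes pubescens, a white-rot fungus, 102 of 14451 gene models (0.706%) met a rule for spruce-high genes. It asked for more messenger RNA reads, by a set margin, on Norway spruce than on wheat straw at both culture temperatures, 15 and 25 °C. These spruce-high genes were chosen by their measured values. CPM, a gene's counts relative to a common library total after edgeR's TMM scaling (trimmed mean of M-values), had to reach 10 in the lowest of the 4 spruce libraries, and that lowest value had to be at least 2 times the highest of the 4 straw libraries. The higher level on spruce is therefore what defines the genes and is described below without a test. The same rule with the substrates exchanged gave 113 straw-high genes, and applied to the other fungus of the study, Phlebia centrifuga, it gave 61 spruce-high genes of 13785. The rule does not compare the temperatures, so the comparisons of 25 with 15 °C are tested. It does use the libraries of both temperatures, and so bounds these changes without fixing their direction.

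The fungus was a single strain, FBCC735, precultured in liquid malt extract at 25 °C and then grown for 21 days on 2 g dry weight of straw pieces or spruce sticks at 60% moisture, per the labels' protocols. Each of the 4 groups (straw or spruce, at 15 or 25 °C) had 2 libraries, made from RNA purified over caesium chloride. The temperatures come from the sample titles, whereas the protocol text names only 25 °C for the solid cultures. Whether a group's 2 libraries came from separate cultures is not stated in the labels. A p-value here therefore reflects the spread between libraries only, and that spread may be technical. No growth or decay measurement was analysed here, so temperature and the stage of growth cannot be told apart.

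White-rot fungi degrade lignin together with cellulose and hemicellulose, by secreting oxidative enzymes and hydrolases into the plant cell wall. Spruce is a softwood, with guaiacyl lignin and glucomannan as its main hemicellulose, whereas wheat straw is a grass tissue rich in arabinoxylan. Fungi are known to adjust the transcription of such enzymes, and of the transporters for the released sugars, to the substrate. The deposited files do not pair their identifiers with gene names, so no role is given for any gene here, and the lists of enzyme families prepared for these samples were not used. Each gene is named by its JGI number, followed by its scaffold and its model number on that scaffold. Transcript lengths were not used either, so CPM compares 1 gene between libraries, while a ranking of genes by CPM ranks their reads. In RNA from whole mycelium, more cells expressing a gene and more RNA per cell cannot be told apart.

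The T. pubescens libraries held 10180387 to 13635999 counts. Every one of the 102 genes passed the filter on low counts that left 11622 genes for testing, and the lowest count of any of them was 11 in a straw library and 109 in a spruce library. The TMM factors lay between 0.821 and 1.02 in the spruce libraries and between 1.07 and 1.13 in the straw libraries. With library totals in place of TMM, 75 genes met the rule, all of them among the 102.

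The spruce-high genes took a large part of all reads on spruce. They held 1.72% and 1.85% of the counts in the 2 straw libraries at 15 °C, and 1.41% and 1.58% in those at 25 °C. On spruce their share was 10.2% in both libraries at 15 °C, and 7.22% and 6.39% at 25 °C. The share was thus lower at 25 °C on each substrate, with no overlap between the temperatures. The 95% Wilson intervals of these shares reached at most 0.0186 percentage points to either side and cover counting error only. The 10 genes with the most reads on spruce held 5.29% and 4.71% of the counts on spruce at 15 °C and 3.66% and 2.80% at 25 °C.

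**Figure D1:**
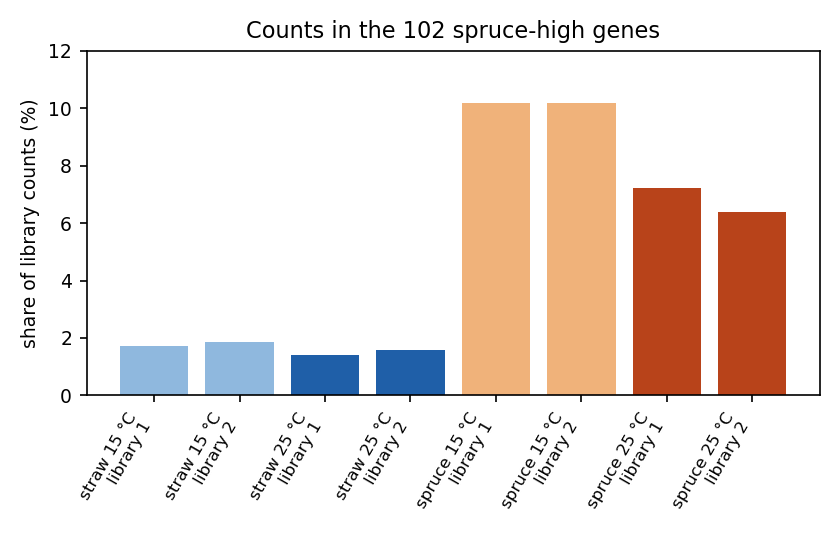
Share of each T. pubescens library's counts held by the 102 spruce-high genes, in percent, by substrate and temperature, with 1 bar per library. The spruce libraries at 15 °C lie at 10.2%, those at 25 °C at 7.22% and 6.39%, and the straw libraries between 1.41% and 1.85%.

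Levels and gaps varied widely among the 102 genes. Their mean CPM over the 4 spruce libraries ran from 12.8 to 8025 with a median of 263, and 29 genes exceeded 1000 CPM. On straw the mean CPM ran from 2.28 to 1185 with a median of 42.0. The genes were not silent on straw: none had a count of 0 in a straw library, and in 38 the highest straw library exceeded 100 CPM. In 16 genes the highest straw library stayed under 10 CPM. One gene, 11452 (scaffold 555, model 10), had a straw library under 1 CPM, with 0.843 CPM in 1 library at 15 °C against 7.36 in the other.

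The ratio of group means, spruce over straw, had a median of 6.05 at 15 °C (range 2.28 to 113) and of 5.27 at 25 °C (range 2.23 to 64.4). It exceeded 10 in 27 genes at 15 °C, in 23 at 25 °C and in 16 at both. The stricter ratio that the rule uses, the lowest spruce over the highest straw library, had a median of 2.86, lay under 3 in 54 genes and exceeded 5 in 15. The lower bound of the rule passes through a continuous range of values. The 3 genes just inside the ratio threshold were 12559, 11922 and 14136, at 2.01, 2.02 and 2.02. Just outside it were 10306, at 1.996, and 1101 and 11538, both at 1.98. At the level threshold, genes 4481, 7728 and 4435 were just inside with lowest spruce values of 10.02, 12.4 and 14.3 CPM, and genes 2914, 8714 and 549 just outside with 9.49, 8.92 and 8.83 CPM. The level threshold alone kept out 14 gene models.

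**Figure D2:**
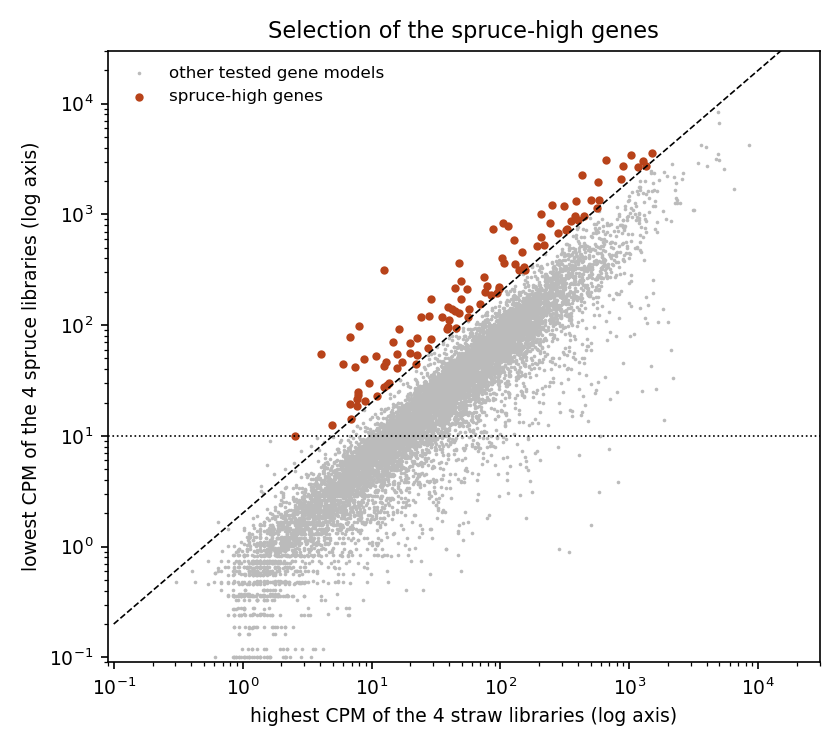
Lowest CPM of the 4 spruce libraries against the highest CPM of the 4 straw libraries for the tested gene models of T. pubescens, both on log axes, with CPM below 0.1 drawn at 0.1. The 102 spruce-high genes lie above the lines of the rule (at least 10 CPM and a ratio of at least 2) and spread from low to high straw levels.

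Gene 874 (scaffold 1085, model 11) had the most reads on spruce. Its straw libraries held 664 and 385 CPM at 15 °C and 508 and 479 CPM at 25 °C. Its spruce libraries held 13976 and 5258 CPM at 15 °C and 9795 and 3073 CPM at 25 °C. The first library of each spruce group was high and the second low, so the temperatures overlapped on spruce. The log2 fold change from 15 to 25 °C on spruce was -0.58 ± 0.58 (SE), with an adjusted p of 0.814 by edgeR's quasi-likelihood test with Benjamini-Hochberg adjustment over the 11622 genes, which is the test behind every adjusted p below.

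Gene 1931 (scaffold 1225, model 4) came next. It held 1267 and 1145 CPM on straw at 15 °C, 491 and 635 on straw at 25 °C, 7007 and 7688 on spruce at 15 °C, and 4346 and 3019 on spruce at 25 °C. Both substrates gave lower values at 25 °C with no overlap, and the fitted changes were close, -0.997 ± 0.27 on spruce (adjusted p 0.139) and -1.10 ± 0.27 on straw (adjusted p 0.264). Neither passed the test. Gene 406 (scaffold 1035, model 33) held 5796 and 8183 CPM on spruce at 15 °C and 4300 and 3424 at 25 °C, against 644 to 1034 CPM on straw.

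Gene 11333 (scaffold 537, model 6) had lower values at 25 °C on spruce and higher values on straw. On spruce it held 4989 and 4367 CPM at 15 °C and 2695 and 2249 at 25 °C. On straw it held 249 and 262 CPM at 15 °C and 426 and 325 at 25 °C. The temperatures did not overlap on either substrate, and the difference between its temperature effects was -1.47 ± 0.35 on the log2 scale with an adjusted p of 0.163, so the difference did not pass. Gene 6454 (scaffold 1655, model 12), by contrast, was lower at 25 °C on straw, with 572 and 474 CPM at 15 °C against 177 and 200 at 25 °C. On spruce it held 7092 and 4146 CPM at 15 °C and 4238 and 1977 at 25 °C, which overlapped.

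The other 5 of the 10 genes with the most reads on spruce were 8618, 12953, 209, 10713 and 5837. The widest change of these between temperatures was in gene 5837 (scaffold 1626, model 2), with 3411 and 6354 CPM on spruce at 15 °C and 1349 and 1773 at 25 °C. Its log2 change on spruce was -1.65 ± 0.39 with an adjusted p of 0.0948. Genes 8618, 12953, 209 and 10713 had spruce values between 2677 and 7357 CPM and straw values between 547 and 1498 CPM.

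By the ratio of the lowest spruce to the highest straw library, the widest gap between substrates belonged to gene 4872 (scaffold 1556, model 21). It held 7.05 and 12.6 CPM on straw at 15 °C, 9.45 and 6.13 on straw at 25 °C, 442 and 464 on spruce at 15 °C, and 447 and 318 on spruce at 25 °C. The lowest spruce library was 25.2 times the highest straw library, and the group means differed 46.2-fold at 15 °C and 49.1-fold at 25 °C, so the gap was about as wide at either temperature. By group means gene 9042 had a wider gap, 113-fold at 15 °C and 64.4-fold at 25 °C, and genes 3557 and 8912 had wider ones at 15 °C. Gene 11317 (scaffold 535, model 12) was similarly even, with 5.52 to 6.84 CPM over the straw libraries, 114 and 100 CPM on spruce at 15 °C and 97.9 and 78.9 CPM at 25 °C.

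In gene 3557 (scaffold 1431, model 24) the gap was narrower at 25 °C. It held 4.14 and 3.25 CPM on straw at 15 °C, 3.32 and 7.99 on straw at 25 °C, 428 and 265 on spruce at 15 °C, and 145 and 97.8 on spruce at 25 °C. The group means differed 93.7-fold at 15 °C and 21.5-fold at 25 °C. The change on spruce was -1.51 ± 0.39 (adjusted p 0.126) and the difference between the temperature effects -2.12 ± 0.59 (adjusted p 0.246), and neither passed. Gene 9989 (scaffold 422, model 15) held 2.34 to 4.08 CPM on straw, 185 and 138 CPM on spruce at 15 °C and 96.4 and 54.3 CPM at 25 °C. The 6 further genes with the widest gaps were 2307, 8002, 2915, 8031, 4162 and 8037, with ratios of the lowest spruce to the highest straw library between 5.91 and 8.39. Of these, 4162 (scaffold 1507, model 61) came closest to passing on spruce, with 2029 and 1521 CPM at 15 °C and 921 and 793 CPM at 25 °C, a change of -1.05 ± 0.23 and an adjusted p of 0.0849.

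**Figure D3:**
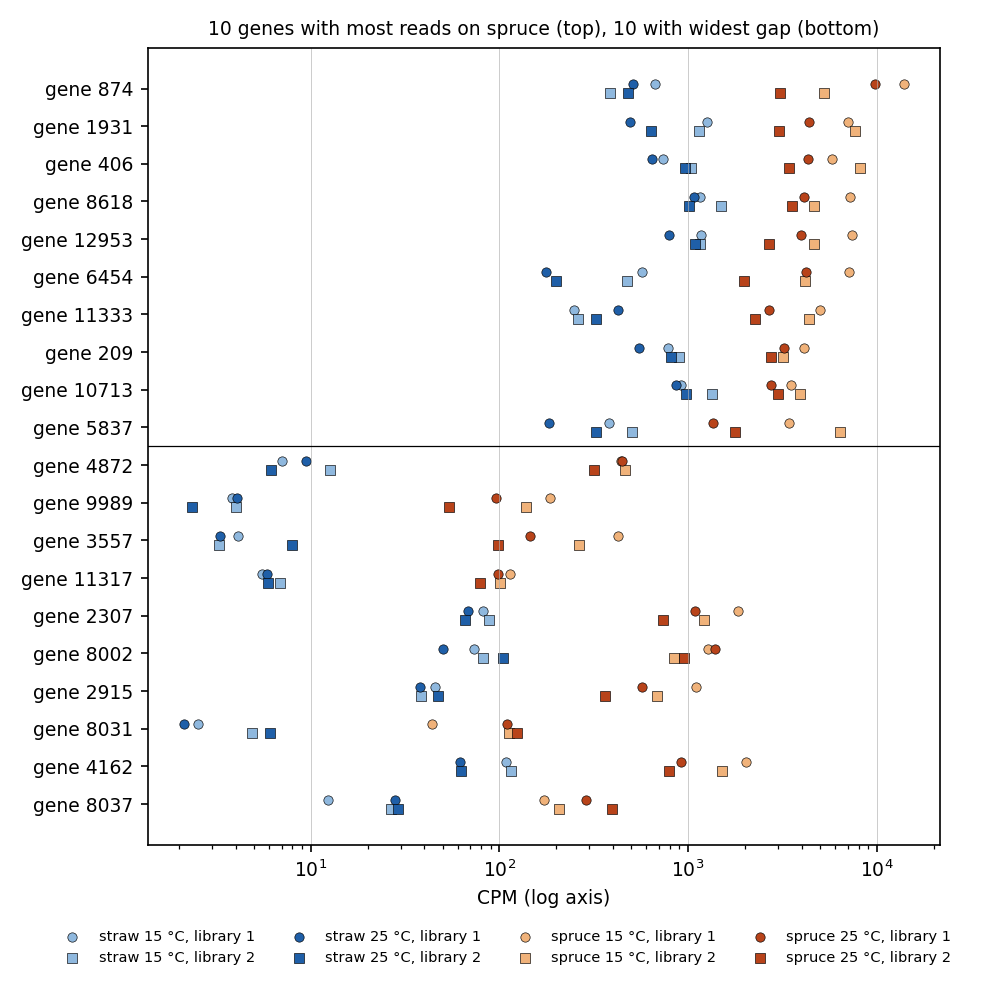
CPM of each T. pubescens library (log axis) for the 10 spruce-high genes with the most reads on spruce (upper block) and the 10 with the widest gap by the ratio of the lowest spruce to the highest straw library (lower block), with colour for substrate and temperature and shape for the library of the group. Gene 874 holds 3073 to 13976 CPM on spruce, and gene 4872 holds 318 to 464 CPM on spruce against 6.13 to 12.6 CPM on straw.

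Between temperatures on spruce, 4 of the 102 genes passed the test at an adjusted p below 0.05, 1 higher and 3 lower at 25 °C. Of all 11622 tested genes 0.628% passed, 0.336% higher and 0.293% lower. At an unadjusted p below 0.05 the count was 50 of 102 (49%), 11 higher and 39 lower, against 12.5% of all tested genes, of which 7.79% were higher and 4.68% lower. The fitted change was below 0 in 72 of the 102 genes (70.6%), against 47.1% of all tested genes. The median log2 fold change was -0.36, with quartiles of -0.85 and 0.17, against a median of 0.03 over all tested genes. A fitted fall of at least 2-fold was seen in 18 genes (17.6%) against 1.85% of all tested genes, and a fitted rise of at least 2-fold in 7 (6.86%) against 5.09%. These shares are not matched on level: median CPM in the spruce libraries was 211 to 302 in the 102 genes and 26.8 to 28.7 over all tested genes. Shares of all tested genes given below are not matched either, except within the 3 ranges of CPM. The number of genes that passed moved with that of all genes. Leaving out a straw library or a spruce library at 15 °C, in turn, left 1 of the 102 and 1 to 48 of all tested genes. Without the first spruce library at 25 °C 15 of the 102 and 334 of all genes passed, and without the second 6 and 130. DESeq2 called 28 of the 102 genes, 5 higher and 23 lower, and 457 of all genes. A fit of the 4 spruce libraries alone called no gene at all, with 39 of the 102 at an unadjusted p below 0.05.

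The spruce libraries at 25 °C both lay below the 2 at 15 °C in 53 of the 102 genes and both above in 17, and they overlapped in 32. Over all tested genes 16.8% lay below and 20.3% above. Scaling by library totals gave 46 below and 21 above among the 102, while over all tested genes it changed the numbers from 1949 below and 2357 above to 1030 below and 3575 above. That scaling moved the median change of all tested genes on spruce to 0.18 and that of the 102 genes to -0.21, so the latter stayed below the former by about the same distance.

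Gene 8912 (scaffold 295, model 10) fell most. On spruce it held 382 and 460 CPM at 15 °C and 30.1 and 38.2 CPM at 25 °C, a 12.3-fold fall of the mean. On straw it held 6.29 and 6.50 CPM at 15 °C and 9.62 and 6.78 CPM at 25 °C, so both libraries at 25 °C lay slightly above both at 15 °C. The log2 change on spruce was -3.62 ± 0.26 with an adjusted p of 0.00223, and on straw it was 0.35 ± 0.26 with an adjusted p of 1. Spruce exceeded straw 65.8-fold at 15 °C and 4.17-fold at 25 °C. The call on spruce held when any 1 library was left out, and it was lost in the fit of the 4 spruce libraries alone, with an adjusted p of 0.0742.

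Gene 11674 (scaffold 591, model 9) fell too, from 1200 and 1558 CPM on spruce at 15 °C to 485 and 459 CPM at 25 °C. Its straw libraries held 147 and 131 CPM at 15 °C and 85.0 and 102 CPM at 25 °C. The change on spruce was -1.55 ± 0.24 with an adjusted p of 0.0327. Gene 2404 (scaffold 1283, model 2) fell from 2155 and 2009 CPM to 715 and 733 CPM on spruce, a change of -1.52 ± 0.23 with an adjusted p of 0.0327. On straw it held 242 and 322 CPM at 15 °C and 144 and 145 CPM at 25 °C, a fitted change of -0.97 ± 0.23 that did not pass (adjusted p 0.222). Unlike gene 8912, both of these genes had lower values at 25 °C on straw as well.

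Gene 7514 (scaffold 1723, model 9) rose on spruce, from 186 and 171 CPM at 15 °C to 435 and 518 CPM at 25 °C. The change was 1.42 ± 0.21 with an adjusted p of 0.0308. On straw its libraries held 28.4 and 30.7 CPM at 15 °C and 49.2 and 49.6 CPM at 25 °C, without overlap and with a fitted change of 0.74 ± 0.21 (adjusted p 0.368). The calls of 11674, 2404 and 7514 were each lost when any straw library or either spruce library at 15 °C was left out, with adjusted p-values from 0.0520 to 0.243, and that of 11674 also without the second spruce library at 25 °C, at 0.0595.

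Some fitted changes on spruce as large as these did not pass. Gene 9042 (scaffold 305, model 10) held 2714 and 5543 CPM on spruce at 15 °C and 217 and 1003 CPM at 25 °C, a 25.5-fold range over the 4 libraries. Its change was -2.76 ± 0.66 with an adjusted p of 0.102. It passed without the first spruce library at 25 °C, at -2.04 with an adjusted p of 0.0444, and without the second, at -4.25 with 0.0145. On straw it held 28.3 and 44.7 CPM at 15 °C and 7.40 and 11.5 CPM at 25 °C, also without overlap. Gene 5148 (scaffold 1573, model 33) held 3390 and 1435 CPM on spruce at 15 °C and 658 and 525 CPM at 25 °C, and on straw 219 and 170 CPM against 25.4 and 30.7 CPM. Its fitted changes were -2.03 ± 0.39 on spruce (adjusted p 0.0595) and -2.80 ± 0.40 on straw (adjusted p 0.0536), just outside the threshold on both. Its change on spruce was -1.29 without the first spruce library at 15 °C (adjusted p 0.290), and -2.20 without the first at 25 °C, where it passed at 0.0300.

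The genes with the largest fitted increases on spruce were 8030, 9738, 7514, 6631 and 9739. Gene 8030 (scaffold 181, model 1) held 41.5 and 56.0 CPM at 15 °C and 110 and 221 CPM at 25 °C, a change of 1.76 ± 0.48 with an adjusted p of 0.137. Gene 6631 (scaffold 1665, model 19) held 43.0 and 45.6 CPM at 15 °C and 141 and 84.8 CPM at 25 °C, a change of 1.35 ± 0.28 with an adjusted p of 0.0754, and it passed without the second spruce library at 25 °C, at 0.0219. Genes 9738 and 9739 are consecutive models on scaffold 387. In both the second spruce library at 25 °C stood apart, with 112 CPM against 37.9 in gene 9738 and 84.0 CPM against 32.2 in gene 9739. Genes 8030, 9738 and 9739 passed where that library stood alone for its group, with adjusted p-values of 0.0193, 0.00390 and 0.00754. At the other end, the 4 spruce libraries differed least in genes 4434, 12512, 4433, 3256 and 2252, with the highest 1.14 to 1.24 times the lowest.

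The lower values at 25 °C were found mainly among the genes with many reads. Ranked by mean CPM over the 8 libraries and divided into 3 groups of 34, the genes with the fewest reads (7.56 to 77.8 CPM) had a median log2 change on spruce of 0.10, with 10 genes lower, 9 higher and 15 overlapping. Of all tested genes in that range of CPM, 15.6% were lower and 20.7% higher without overlap. The middle group (80.7 to 408 CPM) had a median of -0.36, with 18 lower and 6 higher, where 20.7% of all tested genes in the range were lower and 14.7% higher. The group with the most reads (484 to 4267 CPM) had a median of -0.85, with 25 lower and 2 higher, where 33.8% of all tested genes in the range were lower and 12.5% higher. All tested genes in the same 3 ranges of CPM had medians of 0.03, -0.03 and -0.20. Libraries at 25 °C on spruce are themselves part of the mean that ranked the genes. On straw the medians of the 3 groups were -0.04, -0.09 and -0.32.

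On straw, no gene of the 102 passed the test between temperatures with edgeR, against 0.0258% of all tested genes (0.0172% higher and 0.0086% lower). At an unadjusted p below 0.05 there were 23 genes (22.5%), 4 higher and 19 lower, against 6.52% of all tested genes, 2.43% higher and 4.1% lower. DESeq2 called 12 of the 102 and 149 of all genes. The fitted change was below 0 in 65 genes (63.7%) against 48% of all tested genes, and the median was -0.15 against 0.01. That median moved with single straw libraries. It was -0.049 against -0.03 over all tested genes without the first library at 25 °C, -0.27 against 0.00 without the second, and -0.07 against 0.03 without the second library at 15 °C. The straw libraries at 25 °C lay below those at 15 °C in 36 genes (35.3%) and above in 19 (18.6%), where all tested genes had 17.2% below and 16.1% above. Without the first spruce library at 25 °C, whose group then rests on 1 library, 7 genes passed on straw and 103 of all genes. Without the second 2 and 51 passed, and without the second spruce library at 15 °C 1 and 5.

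Changes on the 2 substrates went the same way in part. The fitted change was below 0 on both in 51 genes and above 0 on both in 16, while 21 were below 0 only on spruce and 14 only on straw. Of the 53 genes without overlap and lower at 25 °C on spruce, 23 were lower without overlap on straw and 9 were higher. Of the 17 higher on spruce, 5 were also higher on straw and 3 were lower. These joint counts were not made over all tested genes, so they describe the 102 genes only. Taken singly, 35.3% of the 102 genes were lower without overlap on straw and 18.6% higher, whatever they did on spruce. Of all tested genes, 16.8% were lower without overlap on spruce and 17.2% on straw. Higher without overlap were 20.3% on spruce and 16.1% on straw. Across the 102 genes the 2 changes had a Pearson correlation of 0.34 and a Spearman correlation of 0.26, against a Pearson correlation of 0.21 over all tested genes. The changes share no library, but they come from 1 fit, and genes are not independent replicates.

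**Figure D4:**
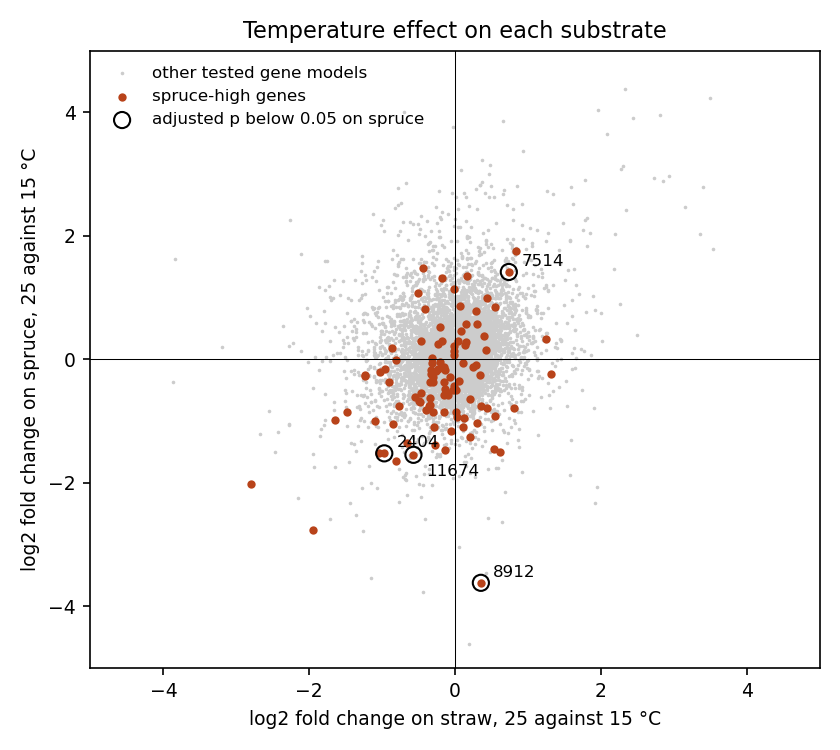
Log2 fold change from 15 to 25 °C on spruce (vertical) against the same on straw (horizontal) for the tested genes of T. pubescens, with the 102 spruce-high genes in red and circles around the 4 that passed the test on spruce; 1 gene model lies outside the axes. Most spruce-high genes lie below 0 on the vertical axis, 72 of 102, and gene 8912 lies lowest at -3.62 with 0.35 on straw.

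The difference between the temperature effects on spruce and on straw passed in 1 of the 102 genes, gene 8912, at -3.98 ± 0.36 on the log2 scale with an adjusted p of 0.0163. Of all tested genes 0.241% passed, 0.198% with a higher and 0.043% with a lower value on spruce. The rule bounds this difference, since a gene had to stay at least 2 times higher on spruce at both temperatures. At an unadjusted p below 0.05 there were 29 genes (28.4%), 11 with a higher and 18 with a lower value on spruce, against 7.86% of all tested genes, 5.43% higher and 2.44% lower. The median difference was -0.08. The call of gene 8912 was lost without either straw library at 15 °C, either spruce library at 15 °C or the first straw library at 25 °C, with adjusted p-values from 0.0826 to 0.147.

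The straw-high genes of the same fungus more often had higher values at 25 °C on spruce. Their median change from 15 to 25 °C on spruce was 0.48 against -0.36 in the spruce-high genes. Of the 113, 50 (44.2%) were higher at 25 °C without overlap and 11 (9.73%) lower, where all tested genes had 20.3% higher and 16.8% lower. The test was passed by 3 of the 113, all higher, where 0.336% of all tested genes passed in that direction. On straw the straw-high genes had a median change of 0.10. The difference between the 2 sets of genes was not tested, since both were chosen by values of the same libraries.

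On straw, replicate libraries of the spruce-high genes lay about as far apart as those of all tested genes. On spruce they lay further apart at 15 °C and slightly closer at 25 °C. The higher of the 2 libraries exceeded the lower by a median factor of 1.19 on straw at 15 °C, 1.20 on straw at 25 °C, 1.29 on spruce at 15 °C and 1.29 on spruce at 25 °C. The medians over all tested genes were 1.19, 1.22, 1.21 and 1.33 in the same order. The factor exceeded 2 in 7 spruce-high genes on spruce at 15 °C and in 13 at 25 °C, and it reached 4.62 in gene 9042. Genes with a factor over 2 were not counted among all tested genes. All tested genes had lower median CPM, 26.8 and 27.2 on spruce at 15 °C against 302 and 258 in the spruce-high genes. The factor was not compared at a like level. The rule that chose the genes uses the values of these same libraries and may itself shape the factor. The comparison with all tested genes is therefore description only.

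The spruce-high genes were scattered over the assembly, with some next to each other. They lay on 78 of the 1308 scaffolds in the table, 61 of which held 1 gene, 12 held 2, 3 held 3 and 2 held 4. By model number, 17 genes (16.7%) stood directly beside another spruce-high gene, in 7 pairs and 1 run of 3. The same was true of 31 of the 113 straw-high genes (27.4%), each beside another straw-high gene. Of the 14451 gene models, 174 stood beside a spruce-high gene without being one themselves. The placement was not tested. Model numbers give an order, not a distance. Because the strand setting of the counting is unknown here, overlapping neighbours and near-identical copies may share reads.

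The run of 3 was on scaffold 1532, models 46, 47 and 48 (genes 4433, 4434 and 4435). Gene 4433 held 28.7 to 38.6 CPM on straw and 92.8 to 111 CPM on spruce. Gene 4434 held 5.30 to 7.67 CPM on straw and 18.6 to 21.3 CPM on spruce. Gene 4435 held 5.73 to 6.98 CPM on straw and 14.3 to 26.0 CPM on spruce. None of the 3 passed the test between temperatures on either substrate, and 2 of them are among the 5 genes whose spruce libraries differed least. Another spruce-high gene of the scaffold, 4423 (model 36), held 2936 and 2098 CPM on spruce at 15 °C and 1451 and 1008 CPM at 25 °C. On straw it held 148 to 205 CPM. Its log2 change on spruce, -1.03 ± 0.27, did not pass either (adjusted p 0.133).

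Scaffold 181 held 9 models, of which 1, 2, 7 and 8 were spruce-high. Model 1 (gene 8030) held 1.69 to 7.40 CPM on straw and 41.5 to 221 CPM on spruce, and model 2 (gene 8031) held 2.13 to 6.05 CPM and 44.2 to 124 CPM. Model 7 (gene 8036) held 7.59 to 12.9 CPM on straw and 46.7 to 90.9 CPM on spruce, and model 8 (gene 8037) held 12.3 to 29.1 CPM and 172 to 396 CPM. All 4 genes had their highest value in the second spruce library at 25 °C. Models 5 and 6 between the pairs went the other way, with lower values in each spruce library than in each straw library.

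In 4 of the 7 pairs both genes ranked the 4 spruce libraries in the same order. The order was not compared in other pairs of genes, and neighbours may share reads, so this count is description only. On scaffold 387, gene 9738 held 23.0 and 30.8 CPM on spruce at 15 °C and 37.9 and 112 CPM at 25 °C, and its neighbour 9739 held 20.7 and 25.7 CPM and 32.2 and 84.0 CPM. On scaffold 1634, gene 6029 held 256 and 138 CPM on spruce at 15 °C and 131 and 92.2 CPM at 25 °C, and its neighbour 6030 held 557 and 366 CPM and 321 and 248 CPM. On scaffold 1737, gene 7728 held 18.6 and 12.4 CPM on spruce at 15 °C and 39.8 and 16.2 CPM at 25 °C, and its neighbour 7729 held 54.3 and 28.8 CPM and 125 and 50.0 CPM. On scaffold 1353, gene 2899 held 34.9 and 21.4 CPM at 15 °C and 37.2 and 31.7 CPM at 25 °C, and its neighbour 2900 held 499 and 360 CPM and 617 and 396 CPM. The order differed in both pairs of scaffold 181 and on scaffold 178, where gene 8002 held 1282 and 839 CPM and 1387 and 950 CPM and gene 8003 held 514 and 460 CPM and 461 and 401 CPM.

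**Figure D5:**
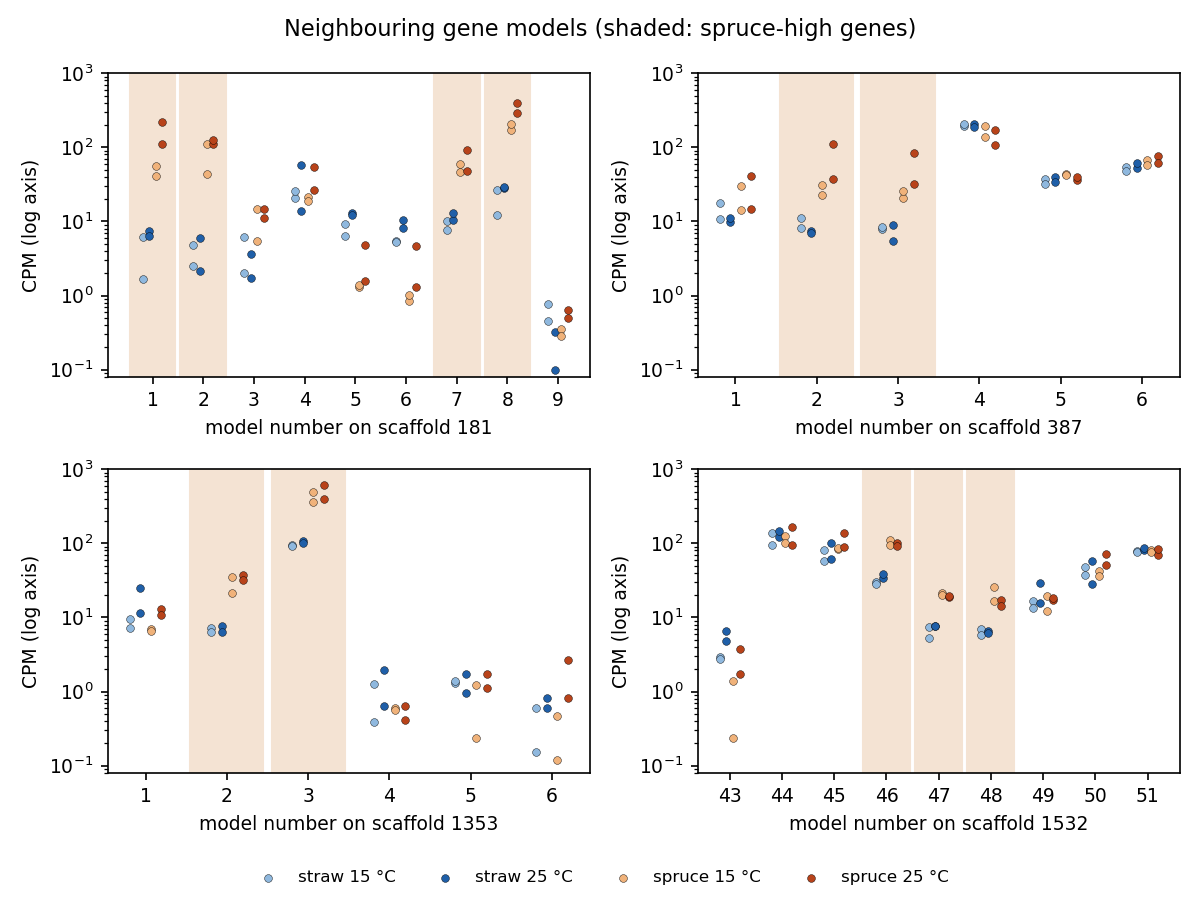
CPM of each library (log axis, CPM below 0.1 drawn at 0.1) for neighbouring gene models, by model number, on 4 scaffolds of T. pubescens with adjacent spruce-high genes (shaded). On scaffold 181, models 1, 2, 7 and 8 are higher in the spruce libraries, whereas models 5 and 6 between them are lower. On scaffold 1532, models 46 to 48 are higher on spruce at both temperatures. The ratio of their group means is 3.26 to 3.48 at 15 °C and 2.48 to 2.67 at 25 °C.

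Models beside a spruce-high gene that did not meet the rule themselves numbered 174, of which 164 were tested. They were compared after the values had been seen. The calls compare spruce with straw in the same libraries that chose the 102 genes, and neighbours may share reads with them. The shares are therefore description only and do not test whether neighbours behave alike. At 15 °C, 20 of these neighbours were called higher on spruce (12.2%) and 6 lower (3.66%), where 5.69% of all tested genes were higher and 7.63% lower. Among all tested genes outside the 102, 4.86% were higher and 7.70% lower. At 25 °C, 18 neighbours were called higher (11%) and 2 lower (1.22%), where 4.22% of all tested genes were higher and 3.43% lower. Among the tested genes outside the 102, 3.37% were higher and 3.46% lower at 25 °C. Their median log2 difference between spruce and straw was 0.22 at 15 °C and 0.16 at 25 °C, against 0.00 and 0.02 in the genes outside the 102. Gene models that missed the rule narrowly are among them, such as gene 2914, which lies beside gene 2915 on scaffold 1353.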

How the data were processed

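The authors deposited unnormalized read counts, a whole number for each gene model in each library. Trimmomatic 0.36 and STAR 2.7.10a were used, per the submitters' processing notes; genome build, annotation version, counting tool and strand setting: not given in the sources used here. From the 8 T. pubescens libraries, CPM was computed with TMM-scaled library totals in edgeR 4.0.16 (R 4.3.3). Genes were filtered with filterByExpr (minimum count 10), and 1 mean per group was fitted over the 8 libraries with glmQLFit, without a replicate block and with 4 residual degrees of freedom. Each contrast was tested by glmQLFTest and Benjamini-Hochberg adjustment over all 11622 tested genes, with a threshold of 0.05. The standard error is the log2 fold change divided by the square root of F. Precision comes from 2 libraries a group and not from depth: chi-square tests of replicate counts gave 29.8 to 89.1 per degree of freedom, so no pair was 1 library deposited in duplicate. Alternatives were other scalings, DESeq2 1.42.0, no filter, a replicate block, each substrate alone, each library left out and other thresholds of the rule.

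The genes and lists described were chosen with earlier results of these data known. Named genes are the 10 with the most reads on spruce, the 10 with the widest gap, those called, the members of the run of 3, the 3 on each side of each threshold, the 5 largest rises and falls without overlap on spruce, and the 5 most and 3 least even genes. Other named neighbours and pairs, and genes 11452 and 4423, were chosen after their values were seen. No annotation, genome or sequence was used here.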

Additional observations from a re-analysis of the deposited data

Results flagged for a closer look

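Gene 8912 (scaffold 295, model 10) stood out because its temperature effect differed between the substrates by a test of the difference itself. The log2 change from 15 to 25 °C on spruce minus that on straw was -3.98 ± 0.36 (SE), with an adjusted p of 0.0163 by edgeR's quasi-likelihood test. With 1 library left out in turn this difference ran from -4.21 to -3.71, and its call was lost in some of those fits. The change on straw by itself, 0.35 ± 0.26, did not pass. Both spruce libraries at 25 °C (30.1 and 38.2 CPM) lay below both at 15 °C (382 and 460 CPM), while both straw libraries at 25 °C (9.62 and 6.78 CPM) lay above both at 15 °C (6.29 and 6.50 CPM). The cause was not tested. Groups of 2 libraries are too small for a check of single outlying libraries.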

How the results depend on the processing

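The number of spruce-high genes called between temperatures moved with the number of all genes called, given here in brackets. On spruce the count of 4 (73) became 28 (457) with DESeq2, 11 (163) with the replicate block and 0 (0) with the 4 spruce libraries alone, and leaving out 1 library gave 1 to 15 (1 to 334). On straw the count of 0 (3) became 12 (149) with DESeq2, 1 (18) without the filter on low counts, 1 (22) with the replicate block and 1 (20) with the 4 straw libraries alone, and leaving out 1 library gave 0 to 7 (0 to 103). For the difference between substrates the count of 1 (28) became 7 (227) with DESeq2 and 0 to 5 (0 to 186) without 1 library. The cause was not tested.

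Replicate numbers were not taken to pair the libraries, because the correlations of same-numbered libraries' deviations were not all above 0: over tested genes they ran from -0.21 to 0.47, with 0.47 between the spruce groups, and over the spruce-high genes from 0.12 to 0.51. With the replicate block genes 9042, 5837, 5148 and 6631 passed on spruce, with adjusted p-values of 0.0158, 0.0275, 0.0370 and 0.0467. The crossed replicate block on straw, added after seeing the data, called 3 (56).

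The median change on spruce was -0.47 to -0.27 without 1 library and stayed below 0 in all 14 alternatives. On straw the median was -0.11 with library totals, and -0.27 to -0.049 without 1 library; its distance from the median of all tested genes was then -0.28 to -0.02. The rule itself gave 221 genes at a ratio of 1.5 and 48 at a ratio of 3, and 106 to 150 without 1 library. With genes chosen by library totals, 10 stood beside another. The changes on spruce of the 11 genes recomputed under the alternatives, and the difference between substrates of gene 8912, kept their sign in each; other fitted changes were not recomputed. Where a library was left out, the lone library of its group was assumed to vary like those of the other groups. With 2 libraries a group, their number limits the precision.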
